A study of Arabidopsis thaliana with 12 samples.

Results

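The comparison set vehicle-treated roots of the Arabidopsis thaliana mutant bpc1,2,3,4,6, called bpc here, against vehicle-treated wild-type (WT, Col-0) roots, in 6 of the 12 libraries of an RNA sequencing series. The label names lesions in 5 genes of the BASIC PENTACYSTEINE (BPC) family. Seedlings were grown at 22 °C in constant light, and were 10 days old when sets of 12 were shaken for 1 h in liquid medium with 0.01% of a 5 N NaOH stock as vehicle, after which the roots were cut off. Replicates 1 to 3 of bpc vehicle and of WT vehicle made up the comparison, and 3 bpc and 3 WT libraries treated for the same time with 5 µM benzyladenine (BA), a synthetic cytokinin, served as libraries in which the same genotype difference could be read again. The labels give neither the insertion sites nor how many lines the mutant stands for. The labels do not tell whether replicates were grown separately, and the p-values therefore describe scatter among these libraries that may be purely technical.

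BPC proteins are plant transcription factors that bind GA-rich DNA, the GAGA motif, through a conserved C-terminal region rich in cysteines. Family members have been linked to homeotic genes of the flower and ovule, to KNOX homeobox genes of the meristem, to Polycomb repression and to cytokinin responses, and plants that lack several members are small and develop abnormally. The vehicle comparison gives the root transcripts that differ between the genotypes without added cytokinin.

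Levels are in RPKM, reads scaled by gene length and by the reads of the library, for 20776 genes that reached 0.5 RPKM in at least 3 of the 12 libraries, out of 33602 listed. Differences are log2 differences, bpc minus WT, on the log2(RPKM + 0.5) scale with their standard error, from limma fitted over all 12 libraries, and a gene counts as called at a Benjamini-Hochberg adjusted p under 0.05. The 6 vehicle libraries held 9824181 to 13951019 reads by the divisor that the RPKM steps imply, by which 1 read on a gene of 1 kb was worth 0.0717 to 0.102 RPKM. Under these divisors and the RefSeq exon lengths 24.5% to 28.0% of the low values came to whole reads within 0.01 of a read, so the depths are estimates. The libraries numbered 3 stood apart. They correlated with the others of their own group at 0.970 to 0.975, against 0.988 between replicates 1 and 2 in either group, and EXT3, an extensin gene of the cell wall, had 22185 and 17672 RPKM in bpc and WT vehicle replicate 3, against 6345 to 8571 RPKM in the other 4. Calls of named genes and list members that were lost or gained without these libraries are given beside them.

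The genotype labels were first read against the BPC genes themselves. BPC6 (AT5G42520, chromosome 5, 17000259 to 17002607, TAIR10.1) had 1.83, 0.913 and 1.21 RPKM in bpc vehicle, against 28.5, 29.4 and 37.9 RPKM in WT vehicle. BPC2 (AT1G14685, chromosome 1, 5042240 to 5045556) had 1.93, 1.49 and 1.31 RPKM in bpc vehicle, against 19.1, 16.6 and 15.6 RPKM in WT vehicle. BPC1 (AT2G01930, chromosome 2, 427114 to 428900) had 2.2, 1.43 and 1.74 RPKM in bpc vehicle, against 13.4, 11.1 and 10.6 RPKM in WT vehicle. In all of these, every bpc library lay far below every WT library, with log2 differences of −4.18 ± 0.32 (adjusted p = 2.5e-05), −3.09 ± 0.13 (adjusted p = 2e-07) and −2.42 ± 0.19 (adjusted p = 3.2e-05) in that order. A further member, BPC4 (AT2G21240, chromosome 2, 9101277 to 9103141) had 17.8, 16.7 and 14.5 RPKM in bpc vehicle, against 24.9, 25.1 and 20 RPKM in WT vehicle, a smaller difference of −0.50 ± 0.12 (adjusted p = 0.046) with no overlap. BPC3 (AT1G68120, chromosome 1, 25526296 to 25527105) went the other way, with 3.95, 2.96 and 2.57 RPKM in bpc vehicle, against 1.21, 1.27 and 1.68 RPKM in WT vehicle, and rose by 0.95 ± 0.20 (adjusted p = 0.031). The label names BPC3 among the mutated genes, and reads on a gene do not show whether its transcript is intact.

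BPC5 and BPC7, which the label does not name, were not called, with 2.27, 2.04 and 3.04 RPKM in bpc vehicle, against 1.74, 1.94 and 2.01 RPKM in WT vehicle, and 0.912, 0.42 and 0.534 RPKM in bpc vehicle, against 0.805, 0.386 and 0.819 RPKM in WT vehicle. Their differences were 0.29 ± 0.16 (adjusted p = 0.51) and −0.06 ± 0.28 (adjusted p = 0.97). The BPC5 groups did not overlap, as in 16.7% of all genes, while those of BPC7 did. In the BA libraries BPC5 was called higher in bpc, by 0.72 ± 0.16 (adjusted p = 0.038). The BPC4 call was lost without WT vehicle 1 or 2 or without any of the 3 bpc vehicle libraries (−0.60 to −0.42 over the 6 omissions). Leaving out WT BA 2 or 3 or any 1 bpc BA library, which changes only the estimate of spread, also ended it. The BPC3 call was lost without replicate 1 or 2 of either vehicle group (0.80 to 1.07), without bpc BA 1, and with the replicate number as a block in the 6 vehicle libraries (adjusted p = 0.06).

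**Figure D1:**
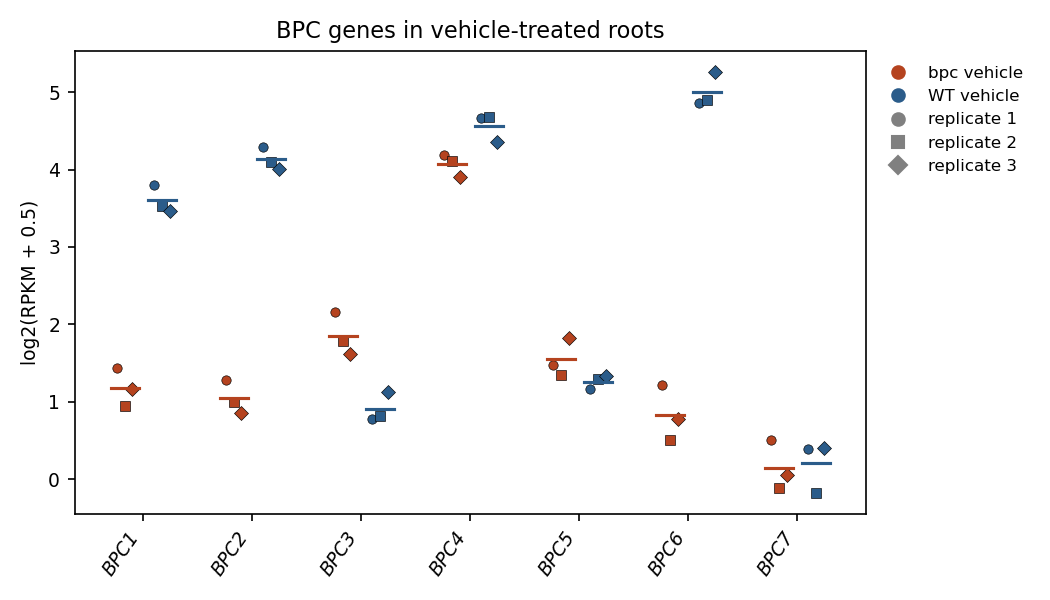
Level of the 7 BPC genes in each vehicle library, as log2(RPKM + 0.5) on the vertical axis, with bpc to the left of WT, a symbol for each replicate and a bar at the group mean. BPC1, BPC2 and BPC6 lie far lower in bpc, BPC4 slightly lower, and BPC3 higher. The groups of BPC5 are close but do not overlap, and those of BPC7 overlap.

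Across the root transcriptome, 414 genes were called, 1.99% of those tested. In bpc, 189 genes (0.91%) rose and 225 (1.08%) fell. The change was at least 2-fold for 73 of the 189 and for 96 of the 225, and the median log2 difference was 0.85 among the genes that rose and −0.96 among those that fell, against 0.04 over all genes. In all 414 genes the 3 bpc values and the 3 WT values did not overlap, which held for 3461 genes, or 16.7%, of all those tested (9.89% higher and 6.77% lower in bpc). The split between directions moved with the scaling. Quantile normalization called 191 higher and 350 lower, and median-of-ratios scaling 211 and 346.

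The count depended on the libraries and on the fit. Without WT vehicle 1 it was 71 higher and 103 lower, without bpc vehicle 2 it was 88 and 134, without bpc vehicle 1 it was 106 and 129, and without WT vehicle 2 it was 102 and 152. Without both libraries numbered 3 it was 162 and 196, or 1.72% of genes, and 105 of the 189 and 151 of the 225 were called again. The 6 vehicle libraries alone gave 26 and 54 (0.385%), and the same 6 with the replicate number as a block gave 390 and 451 (4.05%). With the block, 156 of the 189 and 204 of the 225 were called again. All 414 genes had the same sign in these 3 refits, but this was fixed in advance. The fits of the 6 libraries leave the difference unchanged. Groups that do not overlap keep their direction when libraries are left out.

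**Figure D2:**
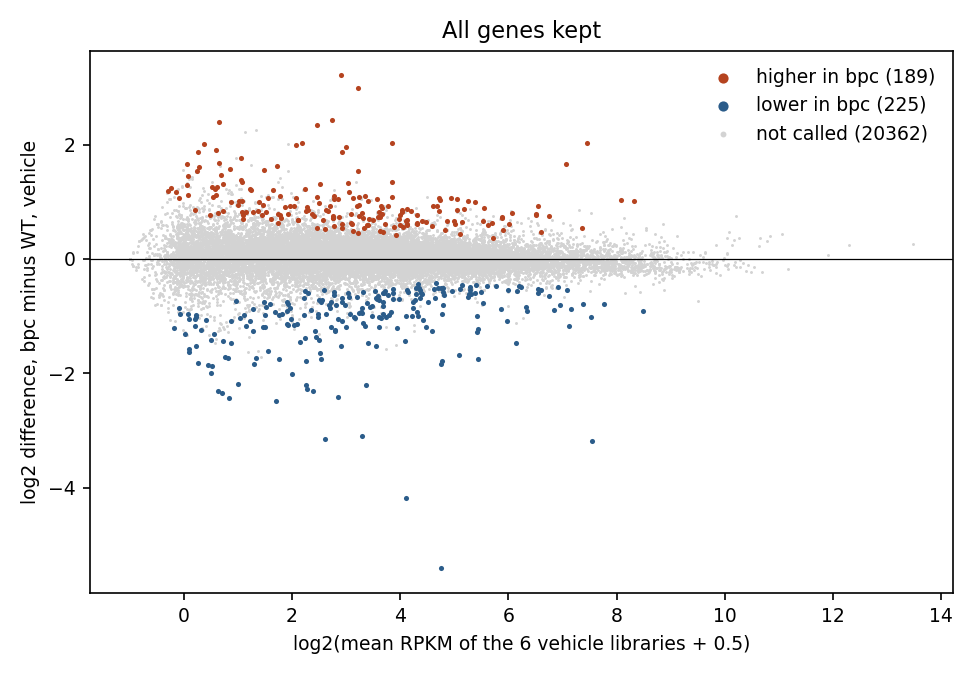
Log2 difference, bpc minus WT with vehicle, on the vertical axis against the mean level of the 6 vehicle libraries on the horizontal axis, 1 point per gene, with the 189 genes called higher and the 225 called lower in colour. The called genes lie at low to high levels but not among the most abundant genes at the far right, and the largest falls reach further from 0 than the largest rises.

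RAB18 and LEA7, proteins of dehydration tolerance, had the 2 largest log2 differences among the genes that rose. RAB18 (AT5G66400, chromosome 5, 26518277 to 26519447), a dehydrin induced by abscisic acid, had 14.7, 14.5 and 9.44 RPKM in bpc vehicle, against 0.649, 2.14 and 0.45 RPKM in WT vehicle, a difference of 3.21 ± 0.45 (adjusted p = 0.0031). LEA7 (AT1G52690, chromosome 1, 19619724 to 19621534), a late embryogenesis abundant protein, had 18.9, 18.6 and 10.5 RPKM in bpc vehicle, against 2.35, 0.875 and 1.58 RPKM in WT vehicle, a difference of 2.99 ± 0.27 (adjusted p = 9.7e-05). KIN1 (AT5G15960, chromosome 5, 5209717 to 5210826), a small hydrophilic protein induced by cold and abscisic acid, had 309, 299 and 231 RPKM in bpc vehicle, against 56.1, 88.3 and 62.1 RPKM in WT vehicle, a difference of 2.03 ± 0.20 (adjusted p = 0.00018). For each of these genes the lowest bpc library stood more than 2-fold above the highest WT library. The order is that of the log2(RPKM + 0.5) scale, which shrinks genes at low level. By the bpc mean as a share of the WT mean, HSP21 (1459%) and COR15A (1346%), described below, stood above RAB18 (1195%). The HSP21 and COR15A shares rest on very few WT reads. In WT vehicle HSP21 had 0.0764 to 0.106 RPKM and COR15A 0 to 0.179 RPKM, where 1 read at 1 kb was worth 0.0717 to 0.0994 RPKM.

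RD29B (AT5G52300, chromosome 5, 21237021 to 21239531), a hydrophilic protein induced by abscisic acid, had 3.64, 3.42 and 1.19 RPKM in bpc vehicle, against 0.672, 0.523 and 0.0932 RPKM in WT vehicle. It rose by 1.76 ± 0.39 (adjusted p = 0.038), but the WT values rest on few reads, and bpc vehicle 3 lay well below the other bpc libraries. COR15A, a cold-regulated protein of the chloroplast, had 0.701, 1.75 and 1.4 RPKM in bpc vehicle, against 0.179, 0.107 and 0 RPKM in WT vehicle, a difference of 1.55 ± 0.26 (adjusted p = 0.0089). Of the 20 kept genes in a list of abscisic acid, cold and drought response genes, 6 rose and none fell, against 0.91% of all genes that rose. A positive difference was seen in 18 of the 20, against 57.6% of all genes, and the list's median was 0.46, against 0.04 over all genes. These shares over all genes, with 1.99% called in either direction, are also the background of the lists that follow. The lists were chosen with earlier results of these data known, so their counts are a description and not a test. The 6 were RAB18, KIN1, RD29B and COR15A together with KIN2 and RD26, which are named because they complete the count. KIN2, next to KIN1 on chromosome 5 and nearly identical to it, had 377, 458 and 257 RPKM in bpc vehicle, against 178, 242 and 119.5 RPKM in WT vehicle, a difference of 1.03 ± 0.24 (adjusted p = 0.043). How reads were split between KIN1 and KIN2 is not known, so their separate levels are uncertain. RD26, a NAC transcription factor of the dehydration response, had 18.5, 17.1 and 31.7 RPKM in bpc vehicle, against 11.6, 11.7 and 11.2 RPKM in WT vehicle, a difference of 0.88 ± 0.20 (adjusted p = 0.047). The KIN2 call was lost without any 1 BA library and without WT vehicle 1 or 3 or bpc vehicle 1 or 2 (0.77 to 1.28). The RD26 call held in 1 of the 12 omissions of a single library, that of bpc vehicle 2 (0.61 to 1.04). Over these 12 omissions between 3 and 5 members of the list were called.

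The other 14 members of the list did not pass. NCED3, the enzyme that limits abscisic acid synthesis, had 0.891, 1.05 and 1.1 RPKM in bpc vehicle, against 0.496, 0.854 and 0.516 RPKM in WT vehicle (0.44 ± 0.17, adjusted p = 0.23). The dehydrins COR47, ERD10 and LTI30 differed by 0.44 ± 0.27 (adjusted p = 0.55), 0.36 ± 0.22 (adjusted p = 0.55) and 0.48 ± 0.19 (adjusted p = 0.27). RD29A, the close relative of RD29B, had 194, 206 and 301 RPKM in bpc vehicle, against 108, 163 and 129 RPKM in WT vehicle (0.80 ± 0.20, adjusted p = 0.068). In a list of CBF, DREB2 and ZAT stress regulators, which act in the cold and drought response, 0 of 9 kept genes were called. The pair with the smallest p there were ZAT12 at −0.44 ± 0.16 (adjusted p = 0.22) and CBF3 at 0.74 ± 0.30 (adjusted p = 0.29). Without both libraries numbered 3, 4 members of the abscisic acid, cold and drought list were called, and the COR15A and RD26 calls were lost (adjusted p = 0.06 and 0.1). With the replicate block in the 6 vehicle libraries 7 members were called higher. RD29A and LTI30 then passed (adjusted p = 0.047 and 0.04), and RD26 did not (adjusted p = 0.055). The RD29B call was lost without any 1 of WT vehicle 1, 2 or 3, bpc vehicle 1 or 2, WT BA 2, or bpc BA 2 or 3 (1.46 to 2.17).

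Enzymes and regulators outside the stress list were also among the 15 largest rises. NADP-ME1 (AT2G19900, chromosome 2, 8591808 to 8595559), a malic enzyme that turns malate into pyruvate, had 10.7, 11.4 and 10.2 RPKM in bpc vehicle, against 1.77, 1.82 and 1.23 RPKM in WT vehicle, a difference of 2.43 ± 0.15 (adjusted p = 3.6e-06) with a narrow spread in both groups. HSFA2 (AT2G26150, chromosome 2, 11135624 to 11137792), a transcription factor of heat and oxidative stress, had 10.5, 10.8 and 12.9 RPKM in bpc vehicle, against 2.17, 2.29 and 4.05 RPKM in WT vehicle (1.87 ± 0.25, adjusted p = 0.0018). HSP21, a small heat-shock protein of the chloroplast, had 1.7, 0.997 and 1.3 RPKM in bpc vehicle, against 0.0764, 0.0915 and 0.106 RPKM in WT vehicle (1.61 ± 0.22, adjusted p = 0.0021). These were the 2 genes called among 11 kept in a heat-shock list, whose median was 0.27, and 0.05 without both libraries numbered 3. ROF2, a heat-induced immunophilin, was called higher with the replicate block in the 6 vehicle libraries (adjusted p = 0.048). HSP101, HSP70 and HSP90.1 differed by −0.53, 0.14 and −0.23 and were not called (adjusted p = 0.26, 0.86 and 0.77).

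LBD26, a LOB-domain transcription factor, had 5.7, 6.44 and 13.8 RPKM in bpc vehicle, against 0.969, 0.464 and 2.82 RPKM in WT vehicle (2.34 ± 0.46, adjusted p = 0.02), with replicate 3 the highest in both groups. ERF1, a transcription factor that joins ethylene and jasmonate signals, had 4.39, 2.53 and 6.78 RPKM in bpc vehicle, against 0.746, 1.43 and 1.03 RPKM in WT vehicle (1.62 ± 0.32, adjusted p = 0.02). The groups of LBD26 and of ERF1 did not overlap, which the choice of the largest rises required. The LBD26 call was lost without WT vehicle 1 or 2 or bpc vehicle 3 (1.94 to 2.84). The ERF1 call was lost without both libraries numbered 3 (adjusted p = 0.08) and without WT vehicle 1 or bpc vehicle 1 or 3 (1.32 to 1.95).

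MRD1 (AT1G53480, chromosome 1, 19963047 to 19964712), annotated as mto 1 responding down 1, was listed at 0 in all 6 WT libraries, BA included, and had 2.47, 1.94 and 2.04 RPKM in bpc vehicle. It was called with an adjusted p of 2.5e-05, and no fold is given because WT was at 0. It was the 1 kept gene at 0 in every WT library that reached 0.5 RPKM in every bpc library. The reverse pattern also held for 1 kept gene, AT3G61117, which was picked out for its values. It was at 0 in all bpc libraries and had 0.556, 1.33 and 2.31 RPKM in WT vehicle. Its call was lost without both libraries numbered 3 (adjusted p = 0.069) and on omitting WT vehicle 2 or either of bpc vehicle 1 and 2 (−2.18 to −1.48).

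The remaining rises carry only family names in the annotation. AT5G08250, a cytochrome P450, had 6.9, 7.41 and 6.14 RPKM in bpc vehicle, against 1.52, 1.39 and 0.999 RPKM in WT vehicle (2.03 ± 0.17, adjusted p = 5.1e-05). AT2G22590, a UDP-glycosyltransferase, had 6.81, 6.68 and 5.02 RPKM in bpc vehicle, against 1.77, 1.17 and 0.71 RPKM in WT vehicle (1.99 ± 0.25, adjusted p = 0.0012). AT2G37870, a lipid-transfer-like protein, had 14.2, 13.1 and 9.42 RPKM in bpc vehicle, against 2.75, 2.85 and 2.6 RPKM in WT vehicle (1.96 ± 0.20, adjusted p = 0.0003). Groups that do not overlap were a condition of the choice of these P450, glycosyltransferase and lipid-transfer genes. Each of them kept its call in all 12 omissions of a single library.

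AT2G27402, annotated as a plastid transcriptionally active protein, had 21.2, 28.7 and 17.9 RPKM in bpc vehicle, against 6.42, 5.53 and 3.56 RPKM in WT vehicle (2.03 ± 0.22, adjusted p = 0.00036). AT2G05510, a glycine-rich protein, had 142, 186 and 279.6 RPKM in bpc vehicle, against 48.1, 83.3 and 57.5 RPKM in WT vehicle (1.66 ± 0.29, adjusted p = 0.011), and its call was lost without WT vehicle 1 (1.40 to 1.89). AT5G39493, an S1-type self-incompatibility protein homologue, had 1.88, 2.58 and 2.04 RPKM in bpc vehicle, against 0.898, 0 and 0.498 RPKM in WT vehicle (1.58 ± 0.33, adjusted p = 0.028). The AT5G39493 call was lost with the replicate block in the 6 vehicle libraries (adjusted p = 0.066), without both libraries numbered 3 (adjusted p = 0.066) and without WT vehicle 2 or any 1 bpc vehicle library (1.17 to 1.91).

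On the log2(RPKM + 0.5) scale, AT4G08410 and PIP2;7 fell furthest outside the BPC family. AT4G08410 (AT4G08410, chromosome 4, 5338819 to 5341209), a proline-rich extensin-like protein, had 2.03, 0.22 and 0.335 RPKM in bpc vehicle, against 34.3, 39.4 and 82.9 RPKM in WT vehicle, a difference of −5.41 ± 0.41 (adjusted p = 2.5e-05). Extensin genes hold repeats and have close copies, so reads may have been shared between them. PIP2;7 (AT4G35100, chromosome 4, 16708361 to 16710407), an aquaporin that moves water across the plasma membrane, had 46.7, 32.5 and 32 RPKM in bpc vehicle, against 346, 375 and 291 RPKM in WT vehicle. Its fall of −3.18 ± 0.15 (adjusted p = 3.5e-07) was the gene-level change with the largest loss in RPKM among the named falls, and every bpc library was at least 6-fold below every WT library. By the bpc mean as a share of the WT mean, which uses no pseudocount, TIR, AT2G15510, AT2G15520, AT4G12500 and AT1G05950, described below, kept less than PIP2;7, from 1.11% for AT2G15510 to 7.9% for AT1G05950. TIR, AT2G15510 and AT2G15520 were at 0 RPKM in bpc vehicle 2 and 3, so their shares rest on very few reads. The other 18 kept aquaporins were not called, and the list's median was −0.10. The near relative PIP2;8 had 16.2, 16.4 and 10.3 RPKM in bpc vehicle, against 12, 12.3 and 9.51 RPKM in WT vehicle (0.31 ± 0.18, adjusted p = 0.52), and PIP2;4, the lowest of the 18, differed by −0.54 ± 0.23 (adjusted p = 0.31). With the replicate block in the 6 vehicle libraries PIP1;5 and PIP2;4 were called lower too (adjusted p = 0.028 and 0.03), and so was PIP2;4 without both libraries numbered 3 (adjusted p = 0.035).

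AT4G12500 (AT4G12500, chromosome 4, 7413990 to 7414955), a lipid-transfer-like protein, had 0.843, 0.841 and 0.523 RPKM in bpc vehicle, against 9.67, 12.4 and 9.46 RPKM in WT vehicle (−3.15 ± 0.19, adjusted p = 3.7e-06). Its neighbour and family member AT4G12490, picked out for its place, was also called lower, by −1.78 (adjusted p = 0.004). TIR (AT1G72930, chromosome 1, 27439240 to 27440464), a toll/interleukin-1 receptor-like protein of the kind that acts in immune signalling, had 0.102, 0 and 0 RPKM in bpc vehicle, against 2.51, 1.69 and 2.5 RPKM in WT vehicle (−2.34 ± 0.20, adjusted p = 5.1e-05). AT3G32030, a terpenoid cyclase family member, had 2.63, 2.27 and 4.99 RPKM in bpc vehicle, against 16.8, 14.2 and 17.7 RPKM in WT vehicle (−2.20 ± 0.23, adjusted p = 0.0003). AT1G55390, a cysteine and histidine-rich C1-domain protein, had 1.56, 0.992 and 1.03 RPKM in bpc vehicle, against 8.36, 5.46 and 8.3 RPKM in WT vehicle (−2.21 ± 0.22, adjusted p = 0.00018). In the TIR, AT3G32030 and AT1G55390 genes the groups stood well apart, and none of the 12 omissions of a single library ended a call.

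AT1G01725, annotated as an adenylosuccinate synthetase, had 1.65, 0 and 0.225 RPKM in bpc vehicle, against 7.28, 3.22 and 4.17 RPKM in WT vehicle (−2.48 ± 0.44, adjusted p = 0.012), a call that was lost without WT vehicle 1 (−3.09 to −2.04). AT1G05950, an uncharacterized protein, had 0.228, 0.182 and 0.248 RPKM in bpc vehicle, against 2.75, 2.38 and 3.19 RPKM in WT vehicle (−2.18 ± 0.16, adjusted p = 2.5e-05). The other 4 of the 15 largest falls were annotated pseudogenes. SADHU10-1, from a family of short retroelements, had 1.88, 0.791 and 1.18 RPKM in bpc vehicle, against 6.98, 7.26 and 10.3 RPKM in WT vehicle (−2.31 ± 0.21, adjusted p = 9.7e-05). AT2G15510 had 0.0693, 0 and 0 RPKM in bpc vehicle, against 2.19, 2.01 and 2.06 RPKM in WT vehicle (−2.31 ± 0.17, adjusted p = 2e-05). Its neighbour AT2G15520 had 0.194, 0 and 0 RPKM in bpc vehicle, against 2.37, 2.48 and 2.67 RPKM in WT vehicle (−2.43 ± 0.20, adjusted p = 5.1e-05). AT2G04460 had 2.11, 1.02 and 0.627 RPKM in bpc vehicle, against 8.19, 6.87 and 7.41 RPKM in WT vehicle (−2.27 ± 0.27, adjusted p = 0.00074).

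**Figure D3:**
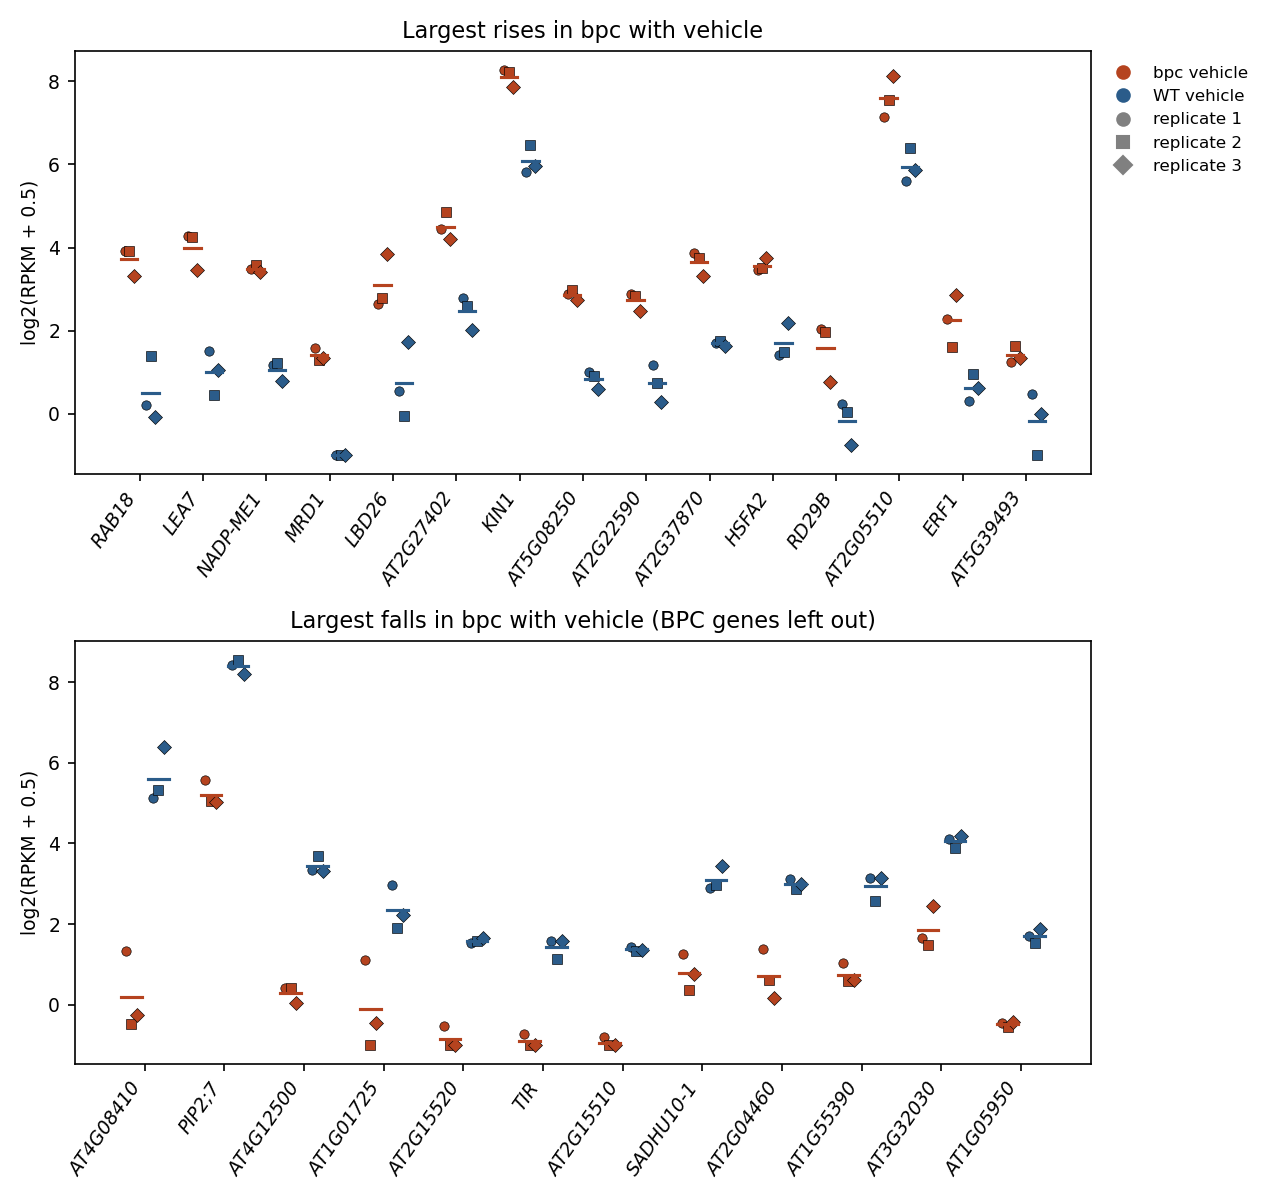
Level of the 15 largest rises (top) and of the largest falls outside the BPC family (bottom) in each vehicle library, as log2(RPKM + 0.5), with bpc to the left of WT, a symbol per replicate and a bar at the group mean. Genes were picked from those with groups that do not overlap, and bpc replicate 1 is the highest bpc library for most of the falls.

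The calls were also read by gene type. Of 116 pseudogenes kept, 11 were called (9.48%), 3 higher and 8 lower, against 393 of 20014 protein-coding genes (1.96%). Besides SADHU10-1, 3 further Sadhu elements, SADHU5-1, SADHU1-3 and SADHU4-1, were among the 8, with differences of −1.18, −2.02 and −0.69 (adjusted p = 0.0078, 0.00042 and 0.013), and they are named because the count is small. Leaving out bpc vehicle 1 or 2 or WT vehicle 2 ended the SADHU4-1 call (−0.78 to −0.62). Reads on pseudogenes and retroelements may come from similar copies elsewhere. Called genes also stood side by side. Of 412 called genes with a position, 38 (9.22%) were next to another called gene in the order of the kept genes, against 3.84% of the genes not called. In 32 of the 38 a neighbour had moved the same way, as in the pairs KIN1 and KIN2, VSP1 and VSP2, and AT2G15510 and AT2G15520.

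Among the 15 largest falls, bpc vehicle 1 was the highest of the 3 bpc libraries for 13 genes. The AT4G08410 level in that library was 2.03 RPKM, against 0.22 and 0.335 RPKM in bpc vehicle 2 and 3, and the AT1G01725 level was 1.65 RPKM, against 0 and 0.225 RPKM. Over all genes kept, bpc vehicle 1 was the highest bpc library for 27.6%, and over 223 genes called lower with a value above 0 for 42.6%. What sets that library apart on the low genes was not tested.

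The share of called genes near the BPC loci was set beside that of the genome. Within 1 Mb of the 5 mutated genes 31 of 1873 kept genes were called (1.66%), against 1.99% over all genes. The 5 mutated genes, all called, count in the 1.99%. The 1 gene called around BPC1 was higher in bpc, so BPC1 itself, called lower, was left out of its own window. The shares ran from 1 of 223 around BPC1 to 12 of 396 (3.03%) around BPC4. NADP-ME1, AT2G22590 and SVP, all called higher, lie within 1 Mb of BPC4, and LOX3, called lower, within 1 Mb of BPC2. For these genes an effect of the lost BPC genes and a difference in linked sequence cannot be told apart. By chromosome, between 1.52% of genes on chromosome 3 and 2.51% on chromosome 2 were called.

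Promoters were read for the hexamer GAGAGA, the core of the motif that BPC proteins bind, in the 250 bases upstream of each annotated gene start (RefSeq, TAIR10.1), on both strands (TCTCTC on the other). It was present in 18.7% of 187 promoters of genes that rose, in 24.4% of 225 promoters of genes that fell and in 19.6% of 20594 promoters of all genes kept. The longer GAGAGAGA, which contains the hexamer, was present in 2.67%, 8.0% and 4.62% of the same promoters. These shares are a description of letters and not of binding. The hexamer lay in 2 of the 15 largest rises, in 1 of the 15 largest falls and in 2 of the 7 BPC genes, BPC4 and BPC5. These 5 promoters are shown because they are the ones among the extremes and the family that hold the letters, written from 5′ to 3′ along the gene's strand, with the hexamer in capitals. They are LEA7 (chr1:19619474-19619723, plus strand), AT2G37870 (chr2:15858954-15859203, plus strand), AT1G55390 (chr1:20683144-20683393, minus strand), BPC4 (chr2:9103142-9103391, minus strand) and BPC5 (chr4:18147081-18147330, minus strand).
LEA7: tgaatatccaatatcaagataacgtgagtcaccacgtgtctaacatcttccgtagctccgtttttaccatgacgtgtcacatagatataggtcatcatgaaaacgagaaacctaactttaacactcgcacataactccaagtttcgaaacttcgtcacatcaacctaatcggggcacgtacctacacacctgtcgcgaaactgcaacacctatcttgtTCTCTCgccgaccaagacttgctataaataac
AT2G37870: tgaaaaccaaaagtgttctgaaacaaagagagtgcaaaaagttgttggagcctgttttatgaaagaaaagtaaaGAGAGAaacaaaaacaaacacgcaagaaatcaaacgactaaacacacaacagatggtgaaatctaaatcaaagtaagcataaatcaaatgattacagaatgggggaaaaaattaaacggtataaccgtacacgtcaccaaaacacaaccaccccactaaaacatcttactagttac
AT1G55390: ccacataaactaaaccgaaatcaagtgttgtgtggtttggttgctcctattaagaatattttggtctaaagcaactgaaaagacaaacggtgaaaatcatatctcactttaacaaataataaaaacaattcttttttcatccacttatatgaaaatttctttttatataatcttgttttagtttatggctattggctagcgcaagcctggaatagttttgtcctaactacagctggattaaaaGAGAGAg
BPC4: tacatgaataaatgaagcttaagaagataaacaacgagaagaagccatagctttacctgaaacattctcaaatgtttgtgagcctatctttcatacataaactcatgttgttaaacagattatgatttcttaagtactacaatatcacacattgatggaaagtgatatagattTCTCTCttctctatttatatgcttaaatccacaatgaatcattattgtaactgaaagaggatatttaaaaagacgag
BPC5: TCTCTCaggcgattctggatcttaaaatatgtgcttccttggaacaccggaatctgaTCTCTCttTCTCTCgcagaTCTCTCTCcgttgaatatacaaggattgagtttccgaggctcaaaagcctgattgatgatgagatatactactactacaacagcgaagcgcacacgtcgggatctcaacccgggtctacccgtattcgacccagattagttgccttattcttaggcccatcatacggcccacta
LEA7 and AT2G37870 were higher in bpc, and AT1G55390 and BPC4 lower. BPC5 had the most bases in the hexamer, 26, and its level was not called with vehicle.

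Most genes reported elsewhere as BPC targets were at or near 0 in these roots. Of 10 such genes 2 were kept, and 5 were at 0 in all 6 vehicle libraries, among them the ovule gene INO and the meristem gene STM. KNAT1, a KNOX homeobox gene that keeps meristem cells undifferentiated, had 3.39, 3.75 and 4.8 RPKM in bpc vehicle, against 5.15, 7.63 and 9.38 RPKM in WT vehicle (−0.79 ± 0.27, adjusted p = 0.19), and with the replicate block in the 6 vehicle libraries its adjusted p was 0.032. GALS1, a galactan synthase of the cell wall, had 13.8, 14.4 and 17.4 RPKM in bpc vehicle, against 12.8, 10.9 and 13.8 RPKM in WT vehicle (0.27 ± 0.12, adjusted p = 0.35). Of 7 kept KNOX genes 0 were called, and KNAT2 differed by −0.61 ± 0.28 (adjusted p = 0.36). KNAT3 differed by 0.50 ± 0.29 (adjusted p = 0.52), with an adjusted p of 0.0496 with that block.

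A trio of MADS-box genes known from flowering and embryos passed the test. SOC1 (AT2G45660, chromosome 2, 18807505 to 18811125), which promotes flowering, had 4.26, 5.45 and 5.32 RPKM in bpc vehicle, against 17.6, 10.4 and 17.3 RPKM in WT vehicle, and fell by −1.47 ± 0.18 (adjusted p = 0.0013). SVP (AT2G22540, chromosome 2, 9579647 to 9583901), a flowering repressor that acts on SOC1, had 7.47, 6.25 and 8.5 RPKM in bpc vehicle, against 3.82, 2.92 and 5.05 RPKM in WT vehicle, and rose by 0.85 ± 0.19 (adjusted p = 0.039). AGL15 (AT5G13790, chromosome 5, 4448862 to 4450958), a regulator that favours the embryonic state, had 5.45, 4.37 and 5.4 RPKM in bpc vehicle, against 1.86, 1.43 and 3.62 RPKM in WT vehicle, and rose by 1.06 ± 0.24 (adjusted p = 0.04). SOC1 kept its call in all 12 omissions of a single library, but lost it in the fit of the 6 vehicle libraries alone (adjusted p = 0.061). The SVP call was lost without WT vehicle 1 or 2, WT BA 3, or any 1 bpc library, vehicle or BA (0.68 to 1.03). The AGL15 call was lost without any of the same libraries or WT BA 1 (0.83 to 1.38). SOC1 and SVP were the 2 called among 6 kept floral MADS-box genes, whose median was 0.11, and AGL15 the 1 called among 6 kept embryo and seed genes, with a median of 0.02, and 0.18 without both libraries numbered 3. PI, a floral organ identity gene, was called higher with the replicate block in the 6 vehicle libraries (adjusted p = 0.038). Of the 8 kept MADS-box genes of the root none was called, with AGL17 at −0.53 ± 0.19 (adjusted p = 0.22) and 0.045 as its adjusted p with the block. Of 14 kept Polycomb components none was called, and EMF2 and LHP1 differed by −0.41 ± 0.14 (adjusted p = 0.19) and 0.30 ± 0.11 (adjusted p = 0.21).

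A pair of iron uptake genes of the root surface fell in bpc. IRT1 (AT4G19690, chromosome 4, 10707344 to 10709015), the main iron transporter of the root epidermis, had 44.3, 49.4 and 20.7 RPKM in bpc vehicle, against 129, 103 and 72.8 RPKM in WT vehicle, and fell by −1.46 ± 0.30 (adjusted p = 0.024). FRO2 (AT1G01580, chromosome 1, 208995 to 213082), the reductase that turns ferric into ferrous iron, had 8.32, 12.8 and 5.41 RPKM in bpc vehicle, against 34.3, 21 and 17.8 RPKM in WT vehicle, and fell by −1.43 ± 0.30 (adjusted p = 0.027). They were the 2 called among 25 kept iron genes, whose median was −0.10. FIT, the transcription factor that activates both, had 33.8, 32.9 and 28.5 RPKM in bpc vehicle, against 34.7, 30.6 and 26.2 RPKM in WT vehicle (0.06 ± 0.13, adjusted p = 0.91). The other genes of the list with large differences, CYP82C4 at −1.26 ± 0.38 (adjusted p = 0.13) and S8H at −1.47 ± 0.53 (adjusted p = 0.21), both in coumarin synthesis, did not pass. The IRT1 call was lost without WT vehicle 1 or 2 (−1.70 to −1.08), and the FRO2 call without WT vehicle 1 or 2 or bpc vehicle 1 or 3 (−1.73 to −1.14).

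Jasmonate genes moved in both directions. VSP1 and VSP2, vegetative storage proteins induced by jasmonate, rose. VSP1 had 80.8, 65.5 and 72.1 RPKM in bpc vehicle, against 44.2, 48.5 and 38.7 RPKM in WT vehicle (0.73 ± 0.11, adjusted p = 0.0056) and VSP2 had 38.5, 42.9 and 45.2 RPKM in bpc vehicle, against 24.6, 26.3 and 19 RPKM in WT vehicle (0.85 ± 0.15, adjusted p = 0.013), though they are neighbouring close copies whose reads may be shared. LOX3 and AOC1, enzymes of jasmonate synthesis, fell. LOX3 had 1.33, 1.64 and 1.24 RPKM in bpc vehicle, against 2.84, 3.48 and 3.5 RPKM in WT vehicle (−0.99 ± 0.18, adjusted p = 0.013), and AOC1 had 1.69, 1.03 and 2.75 RPKM in bpc vehicle, against 5.74, 3.18 and 9.16 RPKM in WT vehicle (−1.45 ± 0.32, adjusted p = 0.037). These were the 4 called among 19 kept, against 1.99% of all genes, with a median of 0.26, and 0.06 without both libraries numbered 3. The summed level of the list was 777, 607 and 1306 RPKM in bpc vehicle 1 to 3, against 669, 605 and 763 RPKM in WT vehicle 1 to 3, so bpc vehicle 3 stood above the rest. The 7 JAZ repressors kept were not called, and JAZ5 had the largest difference among them, 0.93 ± 0.36 (adjusted p = 0.25). Without both libraries numbered 3 the VSP2 and LOX3 calls were lost (adjusted p = 0.054 and 0.071). LOX3 was also lost without WT vehicle 2 (−1.07 to −0.92), and AOC1 without WT BA 1 or 3, any 1 bpc BA library, bpc vehicle 1 or 2, or WT vehicle 1 or 3 (−1.81 to −1.11).

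In the ethylene list of 22 kept genes, ERF1 rose and EIL1 fell, with a median of −0.04. EIL1 (AT2G27050, chromosome 2, 11545656 to 11548293), a transcription factor related to EIN3 that carries the ethylene signal, had 14.6, 10.3 and 15.8 RPKM in bpc vehicle, against 27.9, 27.8 and 29.9 RPKM in WT vehicle (−1.07 ± 0.16, adjusted p = 0.0051). The EIL1 groups stood well apart, and its call held in all 12 omissions of a single library. It was lost in the fit of the 6 vehicle libraries alone (adjusted p = 0.066). ACS11, an enzyme of ethylene synthesis, was called lower with the replicate block in the 6 vehicle libraries (adjusted p = 0.037).

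The flavonoid list had 1 call. TT7, the flavonoid hydroxylase that sets the quercetin branch, had 37.1, 31.8 and 30.4 RPKM in bpc vehicle, against 18.9, 17.6 and 18 RPKM in WT vehicle (0.84 ± 0.11, adjusted p = 0.0019). All 8 kept genes of the list had a positive difference, against 57.6% of all genes, with a median of 0.50, and CHI, the chalcone isomerase, differed by 0.63 ± 0.16 (adjusted p = 0.069). With the replicate block in the 6 vehicle libraries 5 of the 8 were called higher, CHI among them (adjusted p = 0.018). The summed level of the list was 1177, 909 and 845 RPKM in bpc vehicle 1 to 3. In WT vehicle 1 to 3 it was 1058, 749 and 586 RPKM, so WT vehicle 1 stood above bpc vehicle 2 and 3.

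Single calls fell in 3 further lists. ICS1, which makes the precursor of salicylic acid, had 17.7, 23.9 and 20.6 RPKM in bpc vehicle, against 13.4, 12.3 and 12.7 RPKM in WT vehicle (0.67 ± 0.15, adjusted p = 0.04), the 1 call among 13 kept defence genes, with a median of 0.06. PCO2, a cysteine oxidase of oxygen sensing, had 4.16, 3.78 and 3.45 RPKM in bpc vehicle, against 2.55, 2.08 and 1.77 RPKM in WT vehicle (0.72 ± 0.15, adjusted p = 0.026), the 1 call among 13 kept hypoxia genes, with a median of 0.04, and 0.16 without both libraries numbered 3. SUS4, a sucrose synthase of that list, was called lower with the replicate block in the 6 vehicle libraries (adjusted p = 0.045). CESA7, a cellulose synthase of the secondary wall, had 8.37, 9.6 and 7.28 RPKM in bpc vehicle, against 13.9, 17.3 and 11 RPKM in WT vehicle (−0.69 ± 0.16, adjusted p = 0.048), the 1 call among 13 kept xylem genes, with a median of −0.02. These 3 calls each rested on several single libraries. ICS1 was not called without any 1 of WT vehicle 1, 2 or 3, bpc vehicle 2 or 3, WT BA 3 or the 3 bpc BA libraries (0.56 to 0.77) and without both libraries numbered 3 (adjusted p = 0.097). The 1 defence gene called in that last case was WRKY40, a WRKY transcription factor, which was lower (adjusted p = 0.022), while with all libraries it differed by −0.42 ± 0.37 (adjusted p = 0.72). PCO2 was not called without WT vehicle 2 or 3 or bpc vehicle 1 or 2 (0.61 to 0.83) and without both libraries numbered 3 (adjusted p = 0.072). The CESA7 call went without WT vehicle 1 or 2, any 1 bpc vehicle library or any 1 BA library (−0.85 to −0.53).

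Cytokinin genes did not pass the limma test with vehicle. None of 10 type-A response regulators, 14 genes of perception and type-B response regulators or 21 genes of synthesis and breakdown was called, against 1.99% of all genes. The list medians were 0.06, 0.01 and −0.03. ARR8, a type-A regulator that damps the cytokinin response, averaged 31.3 ± 6.55 RPKM in bpc vehicle and 22.6 ± 3.9 RPKM in WT vehicle (SD, n = 3 each), a difference of 0.46 ± 0.16 (adjusted p = 0.19) (adjusted p = 0.041 with the block). ARR3 differed by −0.26 ± 0.13 (adjusted p = 0.43). AHP5, a phosphotransfer protein, and ARR11, a type-B regulator, differed by 0.43 ± 0.16 (adjusted p = 0.23) and 0.43 ± 0.17 (adjusted p = 0.29). LOG8, which activates cytokinins, and CYP735A1, which makes trans-zeatin types, differed by 0.37 ± 0.12 (adjusted p = 0.15) and −0.41 ± 0.15 (adjusted p = 0.21). The authors' edgeR results for this comparison, given below, called ARR8, AHP5, ARR11 and LOG8 (FDR 0.00026, 0.024, 0.017 and 0.014). They did not call ARR3 and CYP735A1 (FDR 0.35 and 0.081).

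Other hormone lists likewise had no call. Among 14 auxin carriers PIN4 had the smallest p, at 0.47 ± 0.12 (adjusted p = 0.074), and PIN2 differed by −0.24 ± 0.10 (adjusted p = 0.32). Among 30 Aux/IAA and GH3 genes, GH3.17, which conjugates auxin, differed by −0.48 ± 0.14 (adjusted p = 0.1), with 0.029 as its adjusted p with the block, and IAA18 by −0.43 ± 0.13 (adjusted p = 0.14). Among 17 genes of gibberellin and brassinosteroid metabolism, GA3ox2 differed by 0.80 ± 0.23 (adjusted p = 0.11), with 0.039 as its adjusted p with the block, and BR6OX2 by −0.42 ± 0.14 (adjusted p = 0.16). ZAT12, given above, had an adjusted p of 0.045 with the block.

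Nutrient and metabolite lists held larger differences that did not pass. NRT2.6, a nitrate transporter, averaged 7.41 ± 1.32 RPKM in bpc vehicle and 21.8 ± 1.19 RPKM in WT vehicle (SD, n = 3 each), a difference of −1.51 ± 0.50 (adjusted p = 0.17). NIR1, the nitrite reductase, differed by −0.49 ± 0.17 (adjusted p = 0.18). PHT1;2, a phosphate transporter, and PAP17, a phosphatase, differed by −1.19 ± 0.28 (adjusted p = 0.052) and −0.58 ± 0.17 (adjusted p = 0.12). MRN1, the marneral synthase, and THAR, an acyltransferase, differed by −0.94 ± 0.25 (adjusted p = 0.086) and 0.21 ± 0.20 (adjusted p = 0.74). MYB122 and BCAT4, of glucosinolate synthesis, differed by −0.71 ± 0.17 (adjusted p = 0.053) and −0.45 ± 0.13 (adjusted p = 0.1). With the replicate block in the 6 vehicle libraries the adjusted p of NRT2.6, NIR1, PHT1;2, PAP17, MRN1, MYB122 and BCAT4 was 0.0059, 0.013, 0.028, 0.018, 0.039, 0.02 and 0.016. MAM1, also of glucosinolate synthesis, was called lower in that fit (adjusted p = 0.028). Without both libraries numbered 3, MYB122 and PAP17 were called too (adjusted p = 0.045 and 0.045).

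Growth and timing lists were close to the background. None of 15 expansins, 20 cell cycle genes or 12 clock genes was called. The genes with the smallest p were EXPA14 and EXLB1 at −0.31 ± 0.12 (adjusted p = 0.24) and 0.48 ± 0.19 (adjusted p = 0.28), CYCB2;1 and CYCA1;1 at 0.39 ± 0.16 (adjusted p = 0.29) and 0.26 ± 0.14 (adjusted p = 0.47), and PRR9 and BOA at −0.78 ± 0.21 (adjusted p = 0.081) and 0.48 ± 0.14 (adjusted p = 0.1). In the fit of the 6 vehicle libraries with the block 1 clock gene, LHY, was called higher (adjusted p = 0.033), against a difference of 0.52 ± 0.15 (adjusted p = 0.11) as reported.

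Markers of cell types were read to see what the samples held. Photosynthesis genes, listed as markers of shoot tissue, were present, and none of 16 kept was called. Whether their reads came from shoot tissue was not tested. With the replicate block in the 6 vehicle libraries 3 were called lower, LHCB1.3, LHCB4.1 and LHCA4, and without both libraries numbered 3 it was 2, LHCB1.3 and LHCA1. Their summed level was 176 to 248 RPKM in bpc vehicle and 207 to 315 RPKM in WT vehicle, with a median difference of −0.34, and 2 of 16 were positive. LHCB1.3, an antenna protein, averaged 31.4 ± 8.23 RPKM in bpc vehicle and 52.8 ± 10.9 RPKM in WT vehicle (SD, n = 3 each), a difference of −0.75 ± 0.19 (adjusted p = 0.069), with 0.0066 as its adjusted p with the block and 0.031 without both libraries numbered 3. LHCB4.1 and LHCA4 differed by −0.42 ± 0.19 (adjusted p = 0.37) and −0.47 ± 0.14 (adjusted p = 0.13), with 0.039 and 0.035 as their adjusted p with the block. LHCA1 differed by −0.67 ± 0.20 (adjusted p = 0.13), with 0.0095 as its adjusted p without both libraries numbered 3. Their part in the results above was not tested. In bulk tissue, fewer cells of a type and less RNA per cell cannot be told apart.

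Root cell types had no call apart from CESA7. This held for 15 root hair genes, 6 non-hair epidermis genes, 11 endodermis genes, 10 phloem genes, 11 genes of the root cap and stem cell niche and 10 genes of lateral root initiation, with list medians between −0.17 and 0.14. RHS18 and RSL2, of root hairs, differed by 0.57 ± 0.17 (adjusted p = 0.13) and −0.48 ± 0.15 (adjusted p = 0.15). CASP5 and CASP2, of the Casparian strip in the endodermis, differed by 0.74 ± 0.19 (adjusted p = 0.066) and −0.34 ± 0.11 (adjusted p = 0.14). With the block, the adjusted p of RSL2 and CASP5 was 0.045 and 0.039. In the epidermis, GL2 and TTG1 differed by −0.20 ± 0.12 (adjusted p = 0.55) and 0.14 ± 0.10 (adjusted p = 0.62), and in the phloem APL and OPS by −0.24 ± 0.11 (adjusted p = 0.36) and 0.19 ± 0.13 (adjusted p = 0.62). CEL5 and BBM, of the root tip, differed by 0.32 ± 0.16 (adjusted p = 0.41) and 0.33 ± 0.21 (adjusted p = 0.57), and LBD16 and PLT7, of lateral roots, by −0.32 ± 0.18 (adjusted p = 0.51) and 0.36 ± 0.24 (adjusted p = 0.6).

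**Figure D4:**
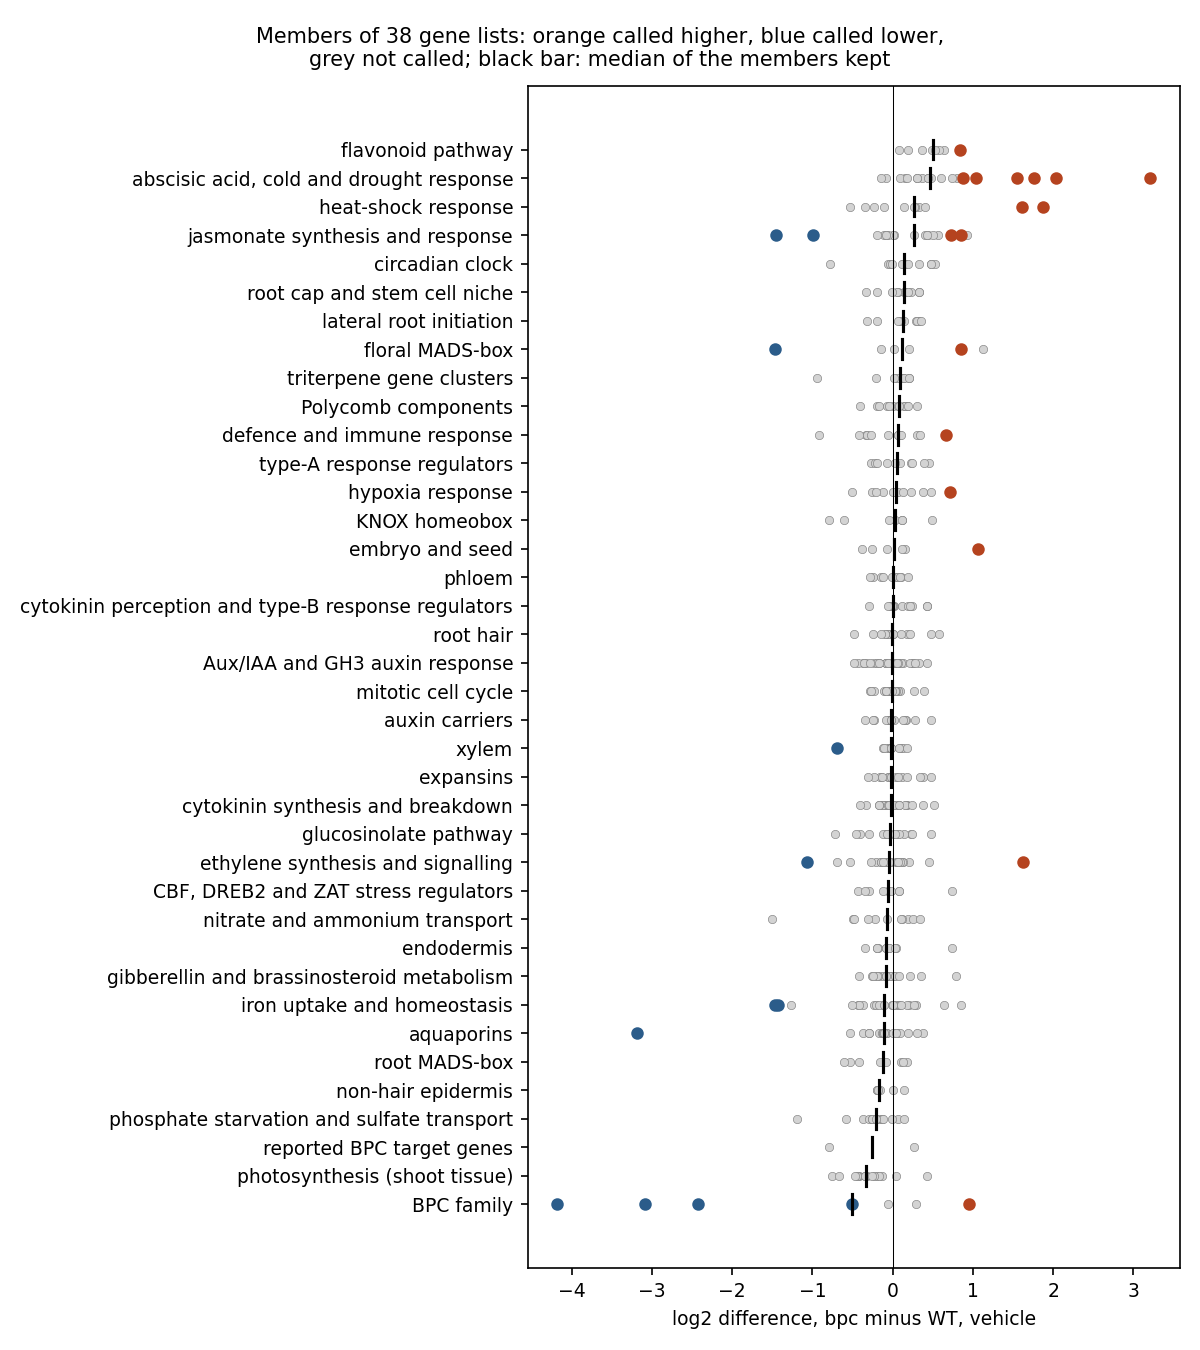
Log2 difference, bpc minus WT with vehicle, of each kept member of the 38 gene lists, 1 list per line ordered by median, with called members in colour and the median as a bar. The abscisic acid, cold and drought list holds 6 members called higher, and its median of 0.46 and the flavonoid median of 0.50 are the highest of the lists.

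The same genotype difference was read in the BA libraries, which share no library with the vehicle comparison. Both come from 1 limma fit with 1 estimate of spread per gene, so the calls in vehicle and in BA are not independent. There 481 genes were called (2.32%), 268 higher and 213 lower. Of the 414 genes called with vehicle, 264 were called in the same direction with BA, which is 63.8% of the vehicle calls and 54.9% of the BA calls. The sign was the same for 98.6% of the vehicle calls, against 72.7% of all genes. The median difference with BA was 0.74 for the genes that rose with vehicle and −0.80 for those that fell. Across all genes the 2 differences had a Pearson r of 0.68, as a description only, since genes are not independent replicates.

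Among the rises, NADP-ME1 had 10.4, 10.5 and 10.1 RPKM in bpc BA, against 1.27, 1.33 and 1.78 RPKM in WT BA. KIN1 had 338, 336 and 342 RPKM in bpc BA, against 67.8, 109 and 69.9 RPKM in WT BA. RAB18 had 18.1, 5.27 and 8.76 RPKM in bpc BA, against 1.16, 3.4 and 1.8 RPKM in WT BA, which gave a log2 difference of 2.02 (adjusted p = 0.036). LEA7 differed by 1.46 (adjusted p = 0.015) with BA. RD29B and ERF1 were not called with BA, at 0.82 (adjusted p = 0.35) and 1.00 (adjusted p = 0.13). Among the falls, PIP2;7 had 44.6, 48.5 and 48.9 RPKM in bpc BA, against 319, 372 and 402 RPKM in WT BA. IRT1, FRO2 and SOC1 were called lower again, at −1.39 (adjusted p = 0.029), −1.39 (adjusted p = 0.03) and −1.26 (adjusted p = 0.0029). SVP and AGL15 were not, at 0.56 (adjusted p = 0.17) and 0.93 (adjusted p = 0.065). Whether the genotype difference itself changed with BA was tested as an interaction in limma, and it was called for 1 of 20776 genes (0.00481%). An unadjusted p under 0.05 was seen in 338 genes, a smaller share of all genes than that threshold itself. Of the 338, 30 were among the 414. The 414 were picked by the vehicle difference, which is part of the interaction, so that count is no result about them.

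**Figure D5:**
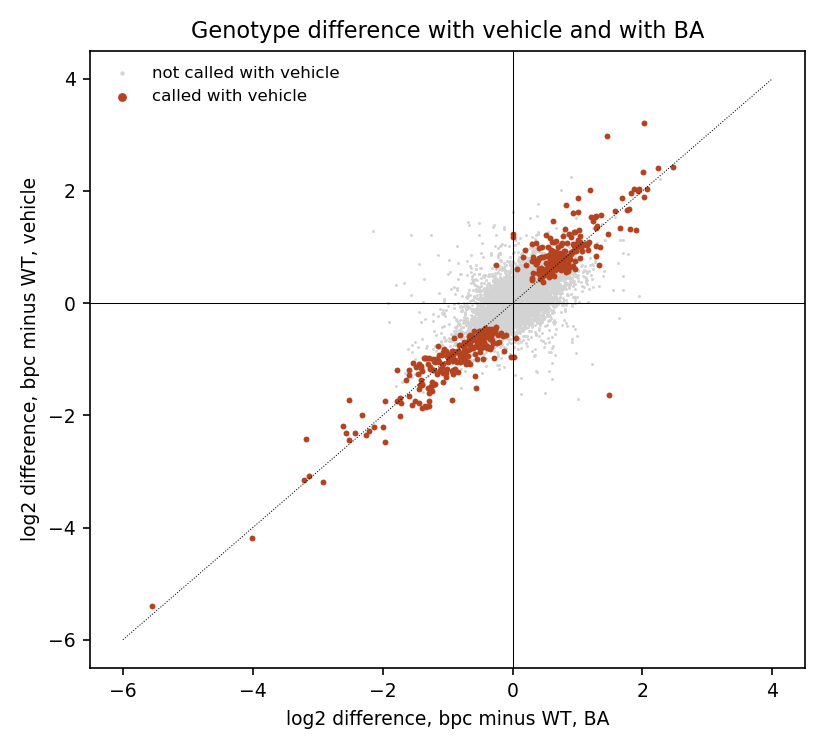
Log2 difference, bpc minus WT, with vehicle on the vertical axis and with BA on the horizontal axis, 1 point per gene, with the 414 genes called with vehicle in colour and a dotted line of equality. The coloured points lie along the line and on the same side of 0 on both axes, except for 6 genes, 1 of them far off at the lower right.

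The authors' deposited table of the same comparison, made with edgeR from read counts, called 2588 of its 19706 genes (13.1%) at an FDR under 0.05. Of these, 1257 (6.38%) were higher and 1331 (6.75%) lower in bpc, with the direction of its fold changes read from BPC1, BPC2 and BPC6. It held 397 of the 414 vehicle calls, and all 397 were called there with the same sign, which is 95.9% of the 414 and 15.3% of the calls in the authors' deposited table. The other 17 were not listed in it. Genes given above as not called can be among its calls, so their absence from the calls here depends on the fit. Examples are KNAT1 (FDR 0.0027), EMF2 (0.00059), PIN4 (2.1e-05), GH3.17 (2.6e-05), CASP5 (0.00061) and CASP2 (0.00023). GALS1 (0.12), KNAT2 (0.053) and PIN2 (0.067) were not called there either.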

How the data were processed

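RNA was sequenced from whole roots of 12 libraries in 4 groups of 3, with the groups and replicate numbers taken from the sample titles. The authors deposited RPKM values for 33602 genes. Per the file headers, the authors' deposited comparison tables hold log2 fold changes, a likelihood-ratio score and p-values with FDR values from edgeR. Per the submitters' processing notes, the tools included FastQC, Bowtie 1.1.0, TopHat2 2.0.11, SAMtools 0.1.18, edgeR 3.0 and featureCounts, and the build was TAIR10. Libraries were stranded, per the labels' protocols, but the sources used here do not say whether strand entered the counting, so overlapping antisense genes are uncertain.

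Read counts were not used here. Depth was estimated from the steps of low RPKM values (24.2% to 28.0% of them came to whole reads within 0.01) and came to 9427912 to 13951019 reads per library, and WT BA 1 had the same divisor, 11653485, as WT vehicle 2. The filter kept genes that reached 0.5 RPKM in 3 or more libraries (20776, of which 20595 matched RefSeq TAIR10.1 by locus tag). limma 3.58.1 in R 4.3.3 was fitted to log2(RPKM + 0.5) over all 12 libraries with 1 coefficient per group and an intensity trend (8 residual degrees of freedom). Tests were two-sided, with Benjamini-Hochberg adjustment over all kept genes. The pseudocount shrinks the fold change of genes at low level. The test was also run on simulated data in which libraries varied independently. The vehicle libraries share deviations, as given below, so that run does not vouch for the p-values. Tables were made with Python 3.11.15, pandas 2.3.3 and numpy 2.4.6.

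The comparison and the 38 gene lists (578 entries, 568 genes, 499 kept) were chosen with earlier results of these data known. Named genes were the BPC family, the 15 largest rises and 15 largest falls among called genes with groups that did not overlap and at least 2 RPKM in 1 group, the 5 genes of smallest p in each direction, and per list up to 4 called members, or 2 by value only. The exceptions are stated where they appear.

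The replicate number was read as a pairing. Deviations of same-numbered bpc and WT vehicle libraries from their group means correlated at 0.31, 0.37 and 0.63. The correlation was as high between bpc 2 and WT 1 (0.34) and 0.19 between bpc 1 and WT 2, while replicate 3 against 1 or 2 gave −0.52 to −0.36, so the values set replicate 3 apart and do not tell 1 from 2. In the BA groups the correlations were 0.06, −0.05 and 0.03. Values with the block come from the 6 vehicle libraries with the number as a block. They assume a pairing of replicates 1 and 2 that these correlations do not show. Alternatives covered the pseudocount, the filter, the scaling, the trend, the samples fitted, the block and each of the 12 libraries left out. The omissions of WT BA 2 and 3 and of the 3 bpc BA libraries were added after the results were seen.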

Additional observations from a re-analysis of the deposited data

Results flagged for a closer look

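AT3G25221 (AT3G25221, chromosome 3, 9184688 to 9184792, TAIR10.1) differed in its genotype effect between vehicle and BA, by 3.11 on the log2 scale in the limma interaction test (adjusted p = 0.02), and it is named because it was the 1 gene called. It was listed at 0, 0 and 0 RPKM in bpc vehicle, against 0.683, 0.817 and 1.89 RPKM in WT vehicle. With BA it had 0.816, 0.871 and 1.01 RPKM in bpc BA, against 0, 0 and 0 RPKM in WT BA. The annotated locus is 105 bases long, and by the depth the RPKM steps imply these values stand for 0, 0 and 0 reads in bpc vehicle, 1, 1 and 2 in WT vehicle, 1, 1 and 1 in bpc BA and 0, 0 and 0 in WT BA. The call rests on 7 reads in all.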

How the results depend on the processing

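The main fit called 189 genes higher and 225 lower. The 6 vehicle libraries alone called 26 and 54, and with the replicate block 390 and 451. Median-of-ratios scaling and quantile normalization called 346 and 350 lower, while 1257 higher and 1331 lower were called in the authors' deposited table. Leaving out 1 of the 12 libraries gave 71 to 204 higher and 103 to 231 lower. Under the other pseudocounts, filters, TPM, no trend, the replicate block over 12 libraries (239 and 252) and omission of both libraries numbered 3, counts stayed within 1.5 times. The interaction called 1 gene, and 2 without both libraries numbered 3, 0 at a minimum of 2 RPKM, 4 with no filter, 2 with no trend, 2 with a pseudocount of 0.1, 0 with a pseudocount of 1 and 0 to 1 with 1 library left out. The cause of these shifts was not tested.

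Of the 49 named genes called, none changed sign in any of the 24 refits and 26 kept the call in all. Only another scaling could have reversed a sign, because the groups did not overlap for any called gene. The 6 vehicle libraries alone lost 23 calls, those of EIL1, SOC1 and VSP1 (adjusted p = 0.09) among them. WT vehicle 1 left out lost 14, WT vehicle 2 left out 13 and bpc vehicle 1 left out 11. The replicate block over 12 libraries ended the calls of BPC4 and CESA7, no filter ended 8 calls, and quantile normalization, which ended 3, left BPC3, RD29B and PCO2 uncalled. In the 6 vehicle libraries the replicate block ended the calls of BPC3 and AT5G39493. It brought in the genes whose blocked p under the threshold is given beside them, and changed no other call among the genes named by rule. The 5 omissions of a BA library added after the results were seen ended 3 to 7 of the 49 calls each. A single read was worth 0.0717 to 0.106 RPKM at 1 kb, which limits what can be said of genes near 1 RPKM or lower.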
